A study of Mus musculus with 9 samples.

Results

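The 10 genes described here mark epithelial cells. They were followed in RNA-Seq data of mouse embryonic fibroblasts (MEFs), a cell type usually counted as mesenchymal. These genes are the keratins *Krt5*, *Krt7*, *Krt8*, *Krt14*, *Krt18* and *Krt19*, the desmosome plaque genes *Dsp* and *Jup*, the surface adhesion gene *Epcam* and the splicing factor gene *Esrp1*. They were taken by symbol from the deposited tables, and all 10 were among the 24341 genes listed. Polyadenylated RNA was sequenced from 9 MEF samples of strain C57BL/6, 3 WT, 3 *Atm-/-* and 3 *Sirt6-/-*, all grown in the same serum-containing medium with no other treatment given in the labels. The age of the embryos, the passage and the number of lines are not given there. The labels name wildtype, *Sirt6-/-*, P53-/- and *Atm-/-P53-/-* mice as sources of the cells, and the study's methods describe *Atm-/-;p53-/-* and *Sirt6-/-* MEFs that were immortalized and came from separate laboratories. Which of these were sequenced is not said, so the genotype and the line that carries it cannot be told apart. Separate cultures or embryos are not named for the 3 samples of a genotype, and p-values measure only the spread between these samples, which may be technical.

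Keratins are intermediate filament proteins that assemble as pairs of an acidic type I and a basic type II chain. *Krt8* (type II) and *Krt18* (type I) are the pair of simple epithelia, where *Krt7* and *Krt19* are often added, and *Krt5* and *Krt14* are the pair of basal cells of stratified epithelia. Desmoplakin and plakoglobin, the products of *Dsp* and *Jup*, link these filaments to the desmosome, and plakoglobin is also part of cadherin junctions of other cells. Fibroblasts rest on vimentin filaments, and the mesothelium, a lining derived from mesoderm, carries vimentin together with keratins.

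The libraries held 32187040 to 33837949 counted reads, so 3 reads corresponded to 0.0887 to 0.0932 CPM, the reads of a gene scaled to the library's total. WT replicate 2 stood apart from the other WT samples, with a chi-square per gene of 16.4 and 15.1 against 6.43 between WT replicates 1 and 3. *Sirt6* had 487, 402 and 472 reads in WT and 4, 5 and 7 in *Sirt6-/-*. *Atm* was not reduced in the samples labelled *Atm-/-*, with 3768, 3564 and 3443 reads against 1536, 1617 and 1627 in WT. Counts per gene do not show which exons were read, so they do not check that label, and *Atm-/-* below means the samples so labelled. *Trp53*, the gene of p53, had 806, 946 and 928 reads in *Atm-/-*, 7108, 7102 and 6563 in WT, and 9081, 9127 and 9218 in *Sirt6-/-*. Of 15 fibroblast markers, 2 were under 1 RPKM on average in WT and in *Atm-/-* (*Lum* and *Fap*) and 3 in *Sirt6-/-* (*Lum*, *Fap* and *Thy1*), named after their values were seen. *Vim* was at 2125 ± 155 RPKM (reads scaled by transcript length and by the library's total; mean ± SD, n = 3) in WT, 1629 ± 17.0 in *Atm-/-* and 1534 ± 14.7 in *Sirt6-/-*.

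The keratin genes lie in the type I cluster on chromosome 11 and the type II cluster on chromosome 15, except that the type I gene *Krt18* (chromosome 15, 102028180 to 102032027, GRCm38, GENCODE M21) lies 23.7 kb from its partner *Krt8* (101996698 to 102004482). *Krt7* is on the same chromosome at 101411043 to 101430313, and *Krt19* (100140810 to 100148665), *Krt14* (100203162 to 100207548) and *Jup* (100368958 to 100397763) are on chromosome 11. Sequences upstream of *Krt7* and *Krt18*, each ending before the first exon that GENCODE gives for a protein-coding transcript, are shown because these keratins of 1 chromosome varied between the genotypes in different ways. The *Krt7* stretch lies inside the gene span given above, after the annotated gene start at 101411043. The E-box CACCTG or its reverse complement CAGGTG, which Snail and Zeb repressors are known to bind, is in capitals. The strand is that of the gene and the build is GRCm38.p6.
Krt7 (chr15:101412153-101412401, plus strand): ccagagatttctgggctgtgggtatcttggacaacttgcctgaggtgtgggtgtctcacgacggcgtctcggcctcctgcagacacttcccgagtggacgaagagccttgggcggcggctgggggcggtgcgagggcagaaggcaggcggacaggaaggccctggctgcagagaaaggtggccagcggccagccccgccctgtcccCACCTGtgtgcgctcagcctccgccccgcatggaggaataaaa
Krt18 (chr15:102027966-102028179, plus strand): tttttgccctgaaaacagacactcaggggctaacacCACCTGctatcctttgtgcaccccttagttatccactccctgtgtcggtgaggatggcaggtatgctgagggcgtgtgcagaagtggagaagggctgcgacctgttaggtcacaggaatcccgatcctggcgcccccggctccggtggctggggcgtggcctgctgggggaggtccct
Counted from the RefSeq start, the capitals begin 44 bases before it in *Krt7* and 214 bases before it in *Krt18*, whose printed stretch stops short of that start, at the start given by GENCODE. RefSeq windows of 300 bases were at hand for 8 of the 10 genes, and CACCTG or CAGGTG was present in 6 of these, while 20.2% of all 32851 windows held it. The grainyhead motif AACCGGTT, which is its own reverse complement, was in 0 of the 8 windows and in 0.146% of all windows. Its looser form AACNNGTT, which contains it, was in 0 of the 8 and in 4.2% of all. *Krt19* and *Esrp1* had no window in the table. These matches describe letters in a window and say nothing of binding.

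In WT MEFs the 10 genes ranged from barely detected to well expressed. *Jup* was highest per length at 35.0 ± 1.41 RPKM, followed by *Krt7* at 10.2 ± 1.75. *Krt18* at 4.85 ± 0.720 and *Krt8* at 4.69 ± 0.451 RPKM did not differ beyond their spread, and *Krt14* at 1.62 ± 0.359 and *Krt19* at 1.47 ± 0.208 did not either (mean ± SD, n = 3). The other genes were all under 1 RPKM. *Epcam* was at 0.522 ± 0.104, *Esrp1* at 0.171 ± 0.0111, *Dsp* at 0.140 ± 0.0290 and *Krt5* at 0.0682 ± 0.0136 RPKM, so the transcript of plakoglobin was 250 times as abundant per length as that of its desmosome partner desmoplakin. That ratio of means was 30.9 in *Atm-/-* and 68.5 in *Sirt6-/-*. *Jup* remained the highest of the 10 genes in *Sirt6-/-*, at 11.7 ± 0.281 RPKM, whereas *Krt19* was highest in *Atm-/-*, at 35.1 ± 2.60.

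**Figure D1:**
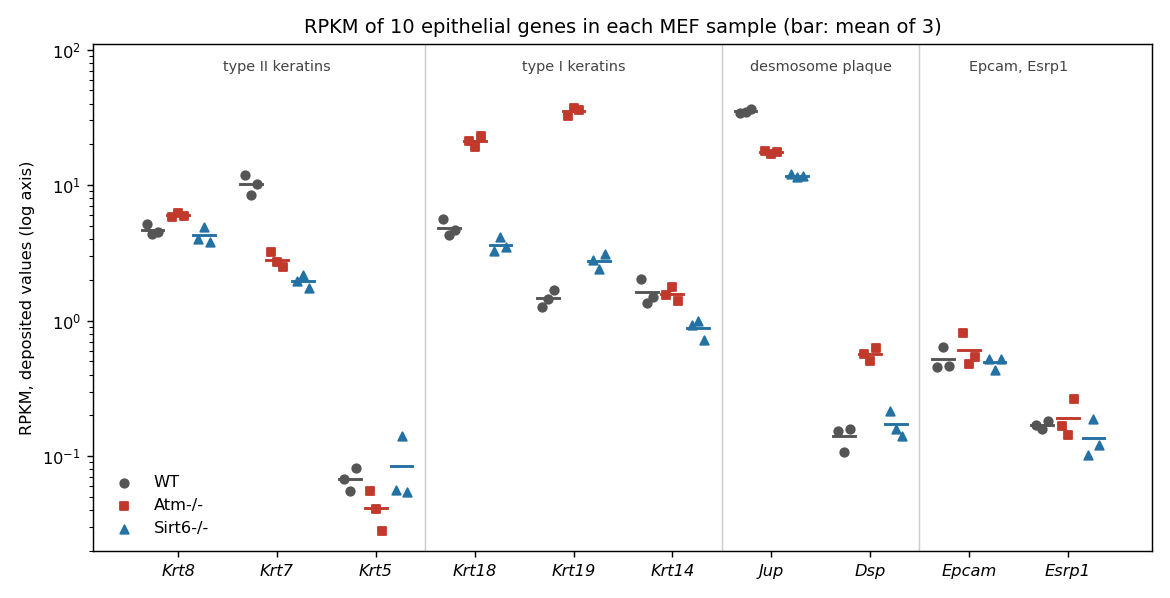
Deposited RPKM (log axis) of the 10 genes in each of the 9 samples, grouped by role, with a bar at the mean of the 3 samples of a genotype. *Krt19*, *Krt18* and *Dsp* lie highest in the *Atm-/-* samples, *Krt7* and *Jup* lie highest in WT, and *Krt5* and *Esrp1* stay below 1 RPKM in all samples.

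In *Atm-/-*, 3 of the 10 genes were higher than in WT (*Krt19*, *Krt18* and *Dsp*) and 2 were lower (*Krt7* and *Jup*). The other 4 tested genes did not pass the test, and *Krt5* had too few reads to be tested. In *Sirt6-/-*, *Krt19* was the 1 gene that was higher than in WT, while *Krt7*, *Jup*, *Krt14* and *Krt18* were lower. The 9 genes tested had at least 10 reads in every sample, so none passed the filter through 1 genotype alone. A gene was called where its adjusted p was under 0.05 in the quasi-likelihood test of edgeR, adjusted by the Benjamini-Hochberg method over all genes tested. The broad change of these lines sets the background for the counts. Of 13283 genes tested, 68.4% were called in *Atm-/-* against WT, 34.7% higher and 33.6% lower. Of 13206 tested in *Sirt6-/-* against WT, 76.6% were called, 39.2% higher and 37.4% lower. The 5 calls among 9 tested members in each comparison were thus not more frequent than calls over all genes. The median log2 fold change of the members was 0.06 in *Atm-/-*, beside 0.02 over all genes tested, and -0.41 in *Sirt6-/-*, beside 0.02. Both comparisons use the same WT samples.

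*Krt19* showed the largest difference of the 10 genes. It had 59, 66 and 77 reads in WT, 1461, 1706 and 1597 in *Atm-/-*, and 124, 107 and 142 in *Sirt6-/-*. The genotypes did not overlap, and each *Atm-/-* sample lay far above all the others. The fold was 21.4 in *Atm-/-* against WT (log2 fold change 4.42, SE 0.12, adjusted p = 1.94e-13, edgeR) and 1.78 in *Sirt6-/-* against WT (0.83, SE 0.22, adjusted p = 0.00303). In the direct test of the knockouts, *Krt19* was 12.2-fold higher in *Atm-/-* than in *Sirt6-/-* (adjusted p = 8.76e-18).

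*Krt18*, the type I keratin of simple epithelia, had 268, 198 and 217 reads in WT, 979, 891 and 1044 in *Atm-/-*, and 148, 186 and 163 in *Sirt6-/-*. All *Atm-/-* samples were above all WT samples, which were all above the *Sirt6-/-* samples, although WT replicate 2 and *Sirt6-/-* replicate 2 were close. The log2 fold change was 1.96 (SE 0.12, adjusted p = 2.16e-09) in *Atm-/-* and -0.51 (SE 0.16, adjusted p = 0.0114) in *Sirt6-/-*. The lower level in *Sirt6-/-* did not pass the test without WT replicate 1 (-0.40, adjusted p = 0.0573) or without *Sirt6-/-* replicate 1 (-0.44, adjusted p = 0.0503). Over all alternatives its adjusted p ranged from 0.00271 to 0.0573. Between the knockouts the log2 difference was 2.48 (SE 0.11, adjusted p = 2.7e-14).

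*Krt8*, the type II partner, had 318, 262 and 270 reads in WT, 345, 375 and 344 in *Atm-/-*, and 235, 288 and 229 in *Sirt6-/-*. *Sirt6-/-* overlapped WT, and although every *Atm-/-* sample lay above the WT samples by reads, they overlapped after TMM scaling. The log2 fold change was 0.19 in *Atm-/-* (95% interval -0.07 to 0.45, adjusted p = 0.185) and -0.23 in *Sirt6-/-* (-0.53 to 0.08, adjusted p = 0.16). With library totals in place of TMM, *Krt8* was called higher in *Atm-/-* (0.35, adjusted p = 0.0176), a scaling that also moved the median of all genes from 0.02 to 0.18. Over all alternatives the adjusted p of *Krt8* in *Atm-/-* ranged from 0.0176 to 0.369. Against *Sirt6-/-*, *Krt8* was higher in *Atm-/-* by 0.43 (SE 0.13, adjusted p = 0.00465). The neighbours and filament partners *Krt8* and *Krt18* therefore had unequal fold changes in *Atm-/-*, and their 95% intervals there, -0.07 to 0.45 and 1.70 to 2.21, did not overlap.

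*Krt7* had 643, 447 and 537 reads in WT, 167, 144 and 127 in *Atm-/-*, and 101, 111 and 93 in *Sirt6-/-*. No knockout sample reached the lowest WT sample. It was 4.08-fold lower in *Atm-/-* (log2 fold change -2.03, SE 0.15, adjusted p = 2.2e-08) and 5.52-fold lower in *Sirt6-/-* (-2.46, SE 0.16, adjusted p = 1.9e-09). *Krt7* was higher in *Atm-/-* than in *Sirt6-/-* by 0.45 (adjusted p = 0.0365), a call that was lost in the DESeq2 Wald test (adjusted p = 0.0594), without *Sirt6-/-* replicate 1 or 3 (0.069 and 0.108) and without *Atm-/-* replicate 1 or 2 (0.154 and 0.054). Over all alternatives its adjusted p ranged from 0.0194 to 0.154. The antisense gene *Gm671* overlaps an exon of a *Krt7* transcript, and opposite-strand genes also overlap exons of *Krt8*, *Dsp*, *Krt5* and *Esrp1*. Whether strand was used in the counting is not given in the sources used here, so such reads cannot be told apart.

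Of the basal pair, *Krt14* had 114, 74 and 83 reads in WT, 85, 98 and 75 in *Atm-/-*, and 50, 53 and 40 in *Sirt6-/-*. It was lower in *Sirt6-/-* than in WT (log2 fold change -0.97, SE 0.27, adjusted p = 0.00402) and did not pass the test in *Atm-/-* (-0.21, 95% interval -0.70 to 0.29, adjusted p = 0.44). Its difference between the knockouts was 0.78 (adjusted p = 0.00975). *Krt5*, its type II partner, had between 2 and 10 reads in the 9 samples and was not tested.

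The 6 keratins together made up 19.9 to 26.2 RPKM in WT, 64.0 to 68.9 in *Atm-/-* and 12.9 to 14.8 in *Sirt6-/-*, and no genotype overlapped another. The leading keratin among these 6 also differed. *Krt7* gave 42.5% to 45.7% of the sum in WT, *Krt8* 29.4% to 33.5% in *Sirt6-/-*, and *Krt19* 50.3% to 55.5% in *Atm-/-*. Type I over type II keratins of the 6 was 0.519 to 0.546 in WT, 1.04 to 1.30 in *Sirt6-/-* and 6.08 to 7.19 in *Atm-/-*. Among these 6 genes the RNA balance thus lay toward type II in WT and toward type I in *Atm-/-*. *Krt80*, a type II keratin not counted here, was at 10.2 ± 0.707 RPKM in WT, 18.8 ± 1.82 in *Atm-/-* and 3.88 ± 0.156 in *Sirt6-/-*. The shares and ratios therefore describe the 6 genes and not all keratins. *Krt18* over *Krt8* was 0.974 to 1.09 in WT, 0.812 to 0.918 in *Sirt6-/-* and 3.06 to 3.91 in *Atm-/-*. These sums and ratios are of deposited RPKM and describe 3 samples of each genotype without a test.

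**Figure D2:**
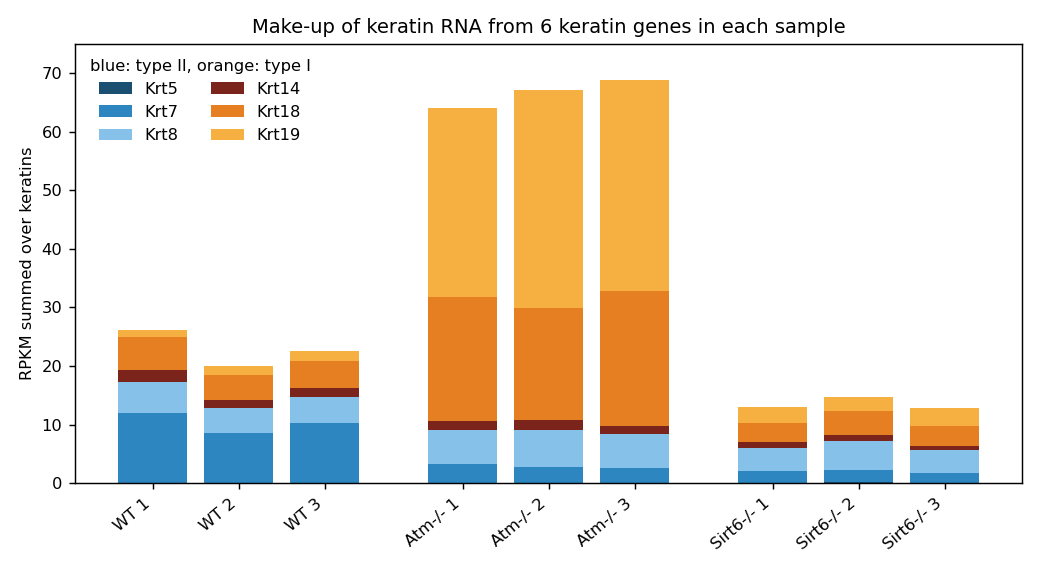
Stacked bars of deposited RPKM of the 6 keratin genes in each sample, with type II keratins in blue and type I in orange tones. The *Atm-/-* bars reach 64.0 to 68.9 RPKM and consist mostly of *Krt19* and *Krt18*, the WT bars reach 19.9 to 26.2 with *Krt7* as the largest share, and the *Sirt6-/-* bars reach 12.9 to 14.8.

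The desmosome plaque genes went opposite ways in *Atm-/-*. *Dsp* had 50, 34 and 51 reads in WT, 179, 160 and 195 in *Atm-/-*, and 67, 49 and 45 in *Sirt6-/-*. *Sirt6-/-* overlapped WT, and the *Atm-/-* samples stood above both. The log2 fold change was 1.85 in *Atm-/-* (SE 0.22, adjusted p = 3.36e-06) and 0.20 in *Sirt6-/-* (95% interval -0.46 to 0.86, adjusted p = 0.562), and the difference between the knockouts was 1.66 (adjusted p = 5.43e-07). Even in *Atm-/-* *Dsp* stayed under 1 RPKM, at 0.565 ± 0.0645.

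*Jup* had 5754, 5747 and 6110 reads in WT, 2973, 2842 and 2824 in *Atm-/-*, and 1949, 1854 and 1970 in *Sirt6-/-*. The genotypes were fully separate, in that order. *Jup* was 2.24-fold lower in *Atm-/-* (log2 fold change -1.16, SE 0.05, adjusted p = 3.32e-11) and 3.17-fold lower in *Sirt6-/-* (-1.66, SE 0.05, adjusted p = 3.88e-13), and the knockouts differed by 0.51 (adjusted p = 1.07e-08).

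*Epcam* and *Esrp1*, which are widely used to define epithelial cells, were low in every sample. *Epcam* had 29 to 55 reads and *Esrp1* 13 to 34, and the genotypes overlapped for both genes. *Epcam* differed from WT by 0.06 in *Atm-/-* (95% interval -0.65 to 0.77, adjusted p = 0.879) and by -0.17 in *Sirt6-/-* (-0.87 to 0.54, adjusted p = 0.66). *Esrp1* differed by 0.01 (-0.82 to 0.83, adjusted p = 0.987) and by -0.41 (-1.28 to 0.46, adjusted p = 0.372). Changes within these wide intervals were not detectable at this depth.

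Compared directly, 7 of the 9 tested members were higher in *Atm-/-* than in *Sirt6-/-* and 0 were lower (edgeR's quasi-likelihood test, adjusted p under 0.05). The other members, *Epcam* (0.24, 95% interval -0.46 to 0.94) and *Esrp1* (0.43, -0.47 to 1.33), did not pass. Of 13460 genes tested, 75.8% were called, 38.0% higher in *Atm-/-* and 37.8% lower. The share of members called in either direction was near that background, while all of the calls lay on the *Atm-/-* side. The median difference of the 9 was 0.51, beside 0.00209 over all genes tested.

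**Figure D3:**
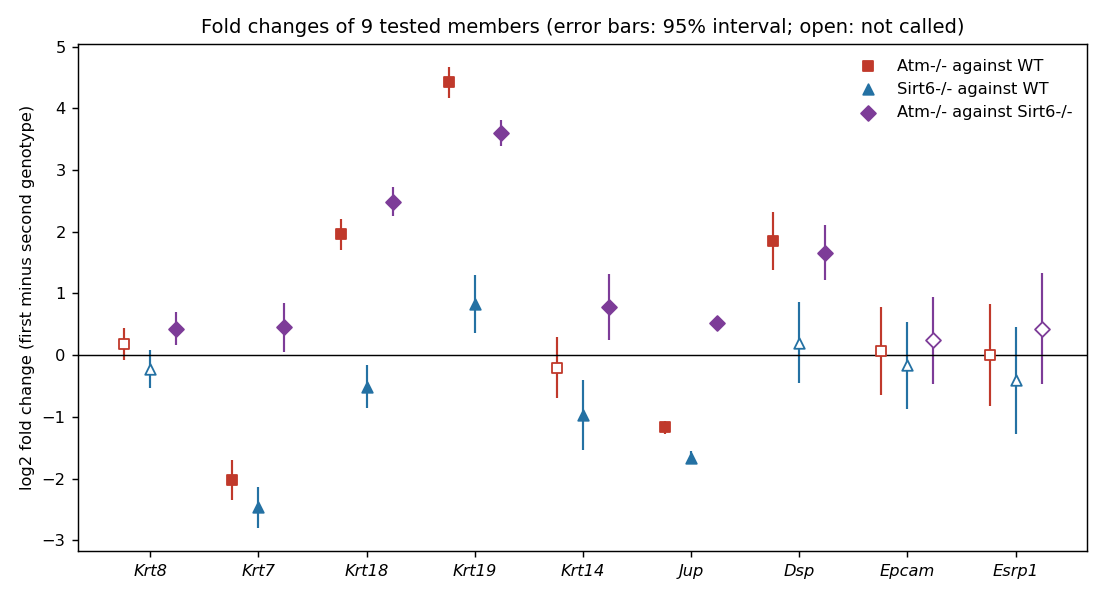
Log2 fold changes of the 9 tested members in the 3 comparisons, with 95% intervals derived from the edgeR F statistic. Points are filled where adjusted p was under 0.05 and open where not. *Krt19* in *Atm-/-* reaches 4.42 against WT, *Krt7* in *Sirt6-/-* reaches -2.46, and the intervals of *Epcam* and *Esrp1* span 0 in each comparison.

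Genes of other epithelial lists were called in both directions. Some of them reached 10 reads in all samples of only 1 genotype of a pair, so that they passed the filter through the group where they were high and could only be counted in 1 direction. Their number is given with each list. The background for every list, here and below, is the share called over all genes tested. It was 68.4% in *Atm-/-* against WT and 76.6% in *Sirt6-/-* against WT. Of 24 other epithelial keratins, 6 could be tested against WT in either knockout, and 4 were higher and 0 lower in *Atm-/-*, while 1 was higher and 3 lower in *Sirt6-/-*. Of these calls, 1 of the 4 (*Krt76*, with 0 reads in every WT sample) and, in *Sirt6-/-*, the 1 higher and 2 of the 3 lower were of such genes. *Krt80*, a type II keratin, had 573 to 646 reads in WT, 996 to 1172 in *Atm-/-* and 214 to 240 in *Sirt6-/-*, with log2 fold changes of 0.72 (adjusted p = 6.19e-06) and -1.47 (adjusted p = 1.12e-08). Its direction in both knockouts was that of *Krt18*.

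Among 15 other desmosome genes, 4 were higher and 1 lower of 7 tested in *Atm-/-*, and 3 were higher and 2 lower of 6 tested in *Sirt6-/-*. In each comparison 1 of the higher genes, *Ppl*, passed the filter only through the knockout. *Ppl*, which encodes the cytolinker periplakin, rose from 6 to 9 reads in WT to 576 to 783 in *Atm-/-* (adjusted p = 3.12e-12) and 196 to 234 in *Sirt6-/-* (adjusted p = 6.25e-10). *Perp*, a desmosome gene known as a target of p53 and p63, was at 57 to 75 reads in WT, 155 to 175 in *Atm-/-* and 1728 to 1747 in *Sirt6-/-*, with log2 fold changes of 1.22 (adjusted p = 6.98e-05) and 4.69 (adjusted p = 1.46e-14). *Dsp* and *Perp* thus had their highest level in different knockouts.

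Of 19 tight junction and polarity genes, 18 were listed and 11 tested. In *Atm-/-* 0 were higher and 5 lower (median -0.26), and in *Sirt6-/-* 1 was higher and 7 were lower (median -1.96), with 1 of the lower genes in each that passed the filter only through WT. *F11r*, the gene of the adhesion molecule JAM-A, had 8500 to 10022 reads in WT, 1947 to 2107 in *Atm-/-* and 45 to 65 in *Sirt6-/-* (log2 fold changes -2.32 and -7.45, adjusted p = 1.24e-13 and 9.22e-17). *Cgn*, which encodes cingulin, fell in the same order, from 3513 to 4847 reads to 1455 to 1698 and 89 to 111 (-1.58 and -5.51, adjusted p = 2.61e-09 and 2.52e-14). The gene that was higher in *Sirt6-/-* was *Cldn1*, a claudin of tight junctions that was named after its values were seen, with 52 to 86 reads in WT and 1666 to 1761 in *Sirt6-/-* (adjusted p = 1.6e-13). The order WT, *Atm-/-*, *Sirt6-/-* of *F11r* and *Cgn* was also that of *Krt7* and *Jup*. It was that of the mean RPKM of *Krt14* too, although *Krt14* overlapped between WT and *Atm-/-*.

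Of 14 epithelial surface genes, 6 were higher and 1 lower of 13 tested in *Atm-/-* (median 0.58), and 4 were higher and 2 lower of 11 tested in *Sirt6-/-* (median 0.04). Of the higher genes, 2 in *Atm-/-* and 1 in *Sirt6-/-* passed the filter only through the knockout. *Cdh1*, the gene of E-cadherin, had 72, 65 and 81 reads in WT, 151, 137 and 140 in *Atm-/-*, and 69, 79 and 43 in *Sirt6-/-*. It rose in *Atm-/-* (log2 fold change 0.84, adjusted p = 0.00152) to 0.983 ± 0.0532 RPKM, and overlapped WT in *Sirt6-/-* (-0.24, adjusted p = 0.443). *Cd24a* rose in both, with log2 fold changes of 2.01 (adjusted p = 4.26e-11) and 2.70 (adjusted p = 1.9e-13), and *Itgb4* of hemidesmosomes fell in *Atm-/-* by 0.998 on the log2 scale (adjusted p = 0.000708) and was called lower in *Sirt6-/-* (-0.93, adjusted p = 0.000324).

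Of 14 epithelial regulators, 2 were higher and 1 lower of 7 tested in *Atm-/-*, and 4 were higher and 4 lower of 9 tested in *Sirt6-/-*. All 4 higher genes in *Sirt6-/-*, *Trp63* and *Foxa1* among them, passed the filter only through *Sirt6-/-*, and 1 of the 4 lower genes only through WT, so the balance of these calls says nothing about the list. *Esrp2*, the paralogue of *Esrp1*, had 400 to 548 reads in WT, 365 to 382 in *Atm-/-* and 20 to 33 in *Sirt6-/-* (log2 fold changes -0.41 and -4.19, adjusted p = 0.011 and 1.58e-10). *Rbm47*, which encodes another RNA-binding protein of epithelia, was higher in *Atm-/-* (0.58, adjusted p = 0.000233) and lower in *Sirt6-/-* (-2.90, adjusted p = 7.4e-10). *Trp63*, the gene of the basal epithelial factor p63, had 2 to 9 reads in WT, 0 to 16 in *Atm-/-* and 367 to 411 in *Sirt6-/-* (adjusted p = 3.44e-11), and *Foxa1* had 4 to 15, 0 to 2 and 147 to 202 (adjusted p = 3.84e-08). *Krt5* and *Krt14*, which p63-expressing basal cells carry, were at 4 to 10 and 40 to 53 reads in those *Sirt6-/-* samples. *Grhl2* had 2 to 26 reads in all samples.

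The 7 transcription factors of epithelial to mesenchymal transition (EMT), repressors of epithelial genes among them, were all called in both comparisons with WT. In *Atm-/-* 5 were higher and 2 lower (median 0.88), and in *Sirt6-/-* 6 were higher and 1 lower (median 1.71). Over all genes tested, 68.4% and 76.6% were called in these comparisons. *Prrx1* rose from 774 to 857 reads in WT to 10097 to 12149 in *Atm-/-* and 23348 to 24969 in *Sirt6-/-*, with log2 fold changes of 3.62 and 4.81 (adjusted p = 5.94e-15 and 3.67e-17). *Twist2* rose by 1.67 and 2.97, and *Snai2* by 1.65 and 2.69, each in *Atm-/-* and *Sirt6-/-* in turn. *Snai1* was lower in *Atm-/-* (-0.49, adjusted p = 0.00112) and higher in *Sirt6-/-* (1.71, adjusted p = 8.24e-10). *Zeb1* was higher in both (0.74 and 0.95) and *Zeb2* lower in both (-1.31 and -1.83). In *Atm-/-* the *Krt18*, *Krt19*, *Dsp* and *Cdh1* transcripts rose in the same samples as *Prrx1*, *Snai2* and *Zeb1*. *Krt7*, *Jup*, *Snai1* and *Zeb2* fell in those samples, so neither the epithelial genes nor the EMT factors moved together.

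Markers of fibroblasts and mesothelium varied in the same samples, where 68.4% (*Atm-/-*) and 76.6% (*Sirt6-/-*) of all genes tested were called against WT. Of 15 fibroblast markers, 3 were higher and 11 lower of 14 tested in *Atm-/-* (median -1.23), and 6 were higher and 7 lower of 13 in *Sirt6-/-* (median -0.56). Of these, 1 higher gene in *Atm-/-* (*Fap*) and 1 lower gene in *Sirt6-/-* (*Thy1*) passed the filter through 1 genotype. Their summed level was 7246 to 7720 RPKM in WT, 3547 to 3579 in *Atm-/-* and 7769 to 7841 in *Sirt6-/-*. In *Sirt6-/-* that sum held much *S100a4*, at 2901 ± 54.9 RPKM against 882 ± 48.4 in WT. It also held much *Col1a2*, at 1520 ± 44.1 against 867 ± 102. Both were named after their values were seen. As 7 of the 13 tested markers were lower in *Sirt6-/-*, the near sums do not mean that the markers were alike. *Col1a1* was at 1739 ± 216 RPKM in WT, 329 ± 19.0 in *Atm-/-* and 507 ± 13.6 in *Sirt6-/-*, and *Col3a1* had a log2 fold change of -4.36 in *Atm-/-* (adjusted p = 1.77e-12). *Thy1* had 590 to 941 reads in WT, 2874 to 3200 in *Atm-/-* and 1 to 33 in *Sirt6-/-*, and *Postn* was higher in *Sirt6-/-* by 2.25 (adjusted p = 4.88e-08).

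Of 7 mesothelial markers, 6 were listed, and all 6 were lower than WT in *Atm-/-* (median -1.79) and in *Sirt6-/-* (median -9.29). In *Sirt6-/-* 3 of them passed the filter only through WT. Over all genes tested, 33.6% were lower in *Atm-/-* and 37.4% in *Sirt6-/-*. Their summed level was 771 to 999 RPKM in WT, 236 to 250 in *Atm-/-* and 18.3 to 24.8 in *Sirt6-/-*. None was at 0 in any genotype, but in *Sirt6-/-* 5 of the 6 were under 1 RPKM on average. The *Sirt6-/-* sum was mostly *Msln*, at 21.0 ± 3.64 RPKM against 177 ± 23.0 in WT, named after its values were seen. *Wt1* had 6653 to 7138 reads in WT, 1927 to 2176 in *Atm-/-* and 4 to 11 in *Sirt6-/-*, *Upk1b* had 16313 to 20868, 3305 to 3511 and 17 to 37, and *Lrrn4* had 23825 to 33800, 234 to 369 and 26 to 41. The summed level fell in the order WT, *Atm-/-*, *Sirt6-/-*, as did the mean RPKM of *Krt7*, *Jup* and *Krt14*. For *Krt14*, WT and *Atm-/-* overlapped. *Krt18*, *Krt19* and *Dsp* were highest in *Atm-/-*. Many other genes followed *Krt7* or *Jup* over the 9 samples, as counted below, so a shared order sets none of them apart. The part of the mesothelial level in the differences between genotypes was not tested. In bulk samples fewer cells of a type and less RNA per cell cannot be told apart.

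**Figure D4:**
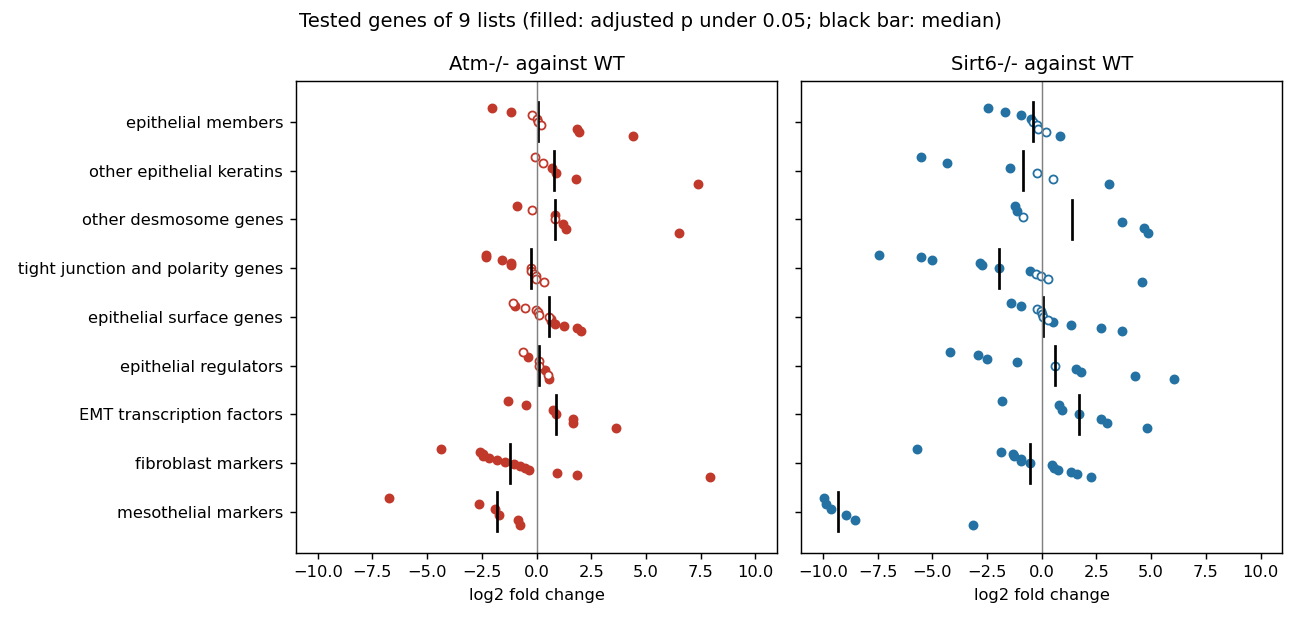
Log2 fold changes of all tested genes of 9 lists in each knockout against WT, 1 point per gene, filled where adjusted p was under 0.05, with a black bar at the median. The members and the other epithelial lists spread to both sides of 0, while the mesothelial markers lie below 0 in both knockouts, with medians of -1.79 and -9.29.

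The genes whose pattern over the 9 samples was most like that of a member were sought among 11410 genes by Pearson's r of log2(CPM + 0.5), as a description. The points share 3 genotypes, which set most of each value. High values were common for all but *Krt8*. An r of at least 0.95 was reached by 612 genes for *Krt7*, 748 for *Jup*, 381 for *Krt19*, 374 for *Krt18*, 217 for *Dsp* and 1 for *Krt8*. *Krt19* was followed most closely by *Crabp2* (r = 0.9983) and *Rbp4* (r = 0.9966), and *Krt18* by *Ano1* (r = 0.9968) and *Fam169a* (r = 0.9962). *Dsp* was followed by *Adarb1* (r = 0.9936) and *Ckb* (r = 0.9922). *Krt7* was followed by *Dync1li1* (r = 0.9964) and *Pign* (r = 0.9963), *Jup* by *Gab2* (r = 0.9981) and *Vdac2* (r = 0.9976), and *Krt8* by *Ccdc24* (r = 0.9531) and *Surf1* (r = 0.9401).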

How the data were processed

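RNA-Seq counts of 9 MEF samples, 3 of each genotype as labelled, were used. The authors deposited whole-number read counts per gene and RPKM made from them with a listed transcript length. The build named in the submitters' processing notes is mm10. The aligner, counter, annotation, strand setting and handling of reads shared with pseudogene copies are not given in the sources used here.

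Counts were fitted for each pair of genotypes with edgeR 4.0.16 in R 4.3.3 (filterByExpr, TMM, prior count 0.125, glmQLFit, glmQLFTest, two-sided, Benjamini-Hochberg over all genes tested, threshold 0.05). RPKM were used for levels. The procedure was tested on simulated data in which few genes changed, as many up as down. That test does not check TMM scaling where most genes are called, as they were here. Totals were 32187040 to 33837949 reads. The labels give no batch or date.

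The 10 members and the 13 gene lists were chosen with earlier results of these data known. Genes named are the members, a fixed set of regulators and targeted genes, and from each list and comparison with WT the 2 largest called changes with at least 100 reads in every sample of 1 genotype, except 1 gene that is not reported here. Gene positions are from GENCODE M21, and sequences from RefSeq on GRCm38.p6.

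Alternatives were DESeq2 1.42.0 size factors and Wald test, library totals, other filters, all 9 samples in 1 fit, the replicate number as a block, a 2-fold threshold, a prior count of 2 and each sample left out.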

Additional observations from a re-analysis of the deposited data

How the results depend on the processing

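The counts of members called against WT (5 in *Atm-/-* and 5 in *Sirt6-/-*) and between the knockouts (7) moved by over 1.5 times only under the 2-fold threshold, which left 2 in *Sirt6-/-* and 3 between the knockouts. Of the members' log2 fold changes under the alternatives, 363 kept their direction and side of the threshold, 7 changed sign, 1 passed it anew and 7 no longer passed it. The last 8 are the *Krt8*, *Krt18* and *Krt7* values given above. Signs changed only for fold changes near 0 that were not called. *Esrp1* in *Atm-/-* against WT was -0.022 with the replicate block and -0.285 to 0.188 with each sample left out, *Epcam* was -0.186 to 0.236 in that comparison and -0.014 to 0.391 between the knockouts. Same-numbered samples showed no clear shared deviation (r between -0.0147 and 0.0606), though deviations from means of 3 samples cannot exclude pairing. The block gave 5, 5 and 7 members called. It gave 8833, 10041 and 10157 calls over all genes, against 9080, 10114 and 10205 without it. With library totals, 64.9% of calls in *Atm-/-* against WT were higher, against 50.8% with TMM, and the median of all genes moved from 0.02 to 0.18 there and from 0.02 to 0.11 in *Sirt6-/-*. Requiring at least 10 reads in every sample left 3 of the 6 mesothelial markers called in *Sirt6-/-*, since that filter removes genes near 0 there. Other causes were not tested. With 3 samples of a genotype and 13 to 55 reads, *Epcam* and *Esrp1* allow only wide intervals, and *Krt5* none. Leaving a sample out leaves 2 in a genotype.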

Other observations

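The levels of several markers of other cell types differed between the genotypes. Where a gene reached 10 reads in all samples of only 1 genotype of a pair, it could only be counted in 1 direction. *Foxa2*, a factor of the endoderm, had 912, 838 and 929 reads in *Atm-/-* and at most 2 in any other sample. *Gata4* had 1121 to 1320 reads in WT, 1233 to 1408 in *Atm-/-* and 2 to 7 in *Sirt6-/-*. Of 7 endoderm markers, 1 was higher and 0 lower of 2 tested in *Atm-/-*, and 0 were higher and 1 lower of 1 tested in *Sirt6-/-*. The gene called in each, *Foxa2* and *Gata4* in turn, passed the filter through 1 genotype. Their summed level was 9.97 to 11.7 RPKM in WT, 24.1 to 26.4 in *Atm-/-* and 0.187 to 0.235 in *Sirt6-/-*.

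Of 7 trophoblast markers, 2 were higher and 1 lower of 3 tested in *Atm-/-*, and 1 was lower of 1 tested in *Sirt6-/-*. Both higher genes in *Atm-/-* passed the filter only through *Atm-/-*. The lower gene was *Gata3* (log2 fold change -1.90 in *Atm-/-* and -1.95 in *Sirt6-/-*; adjusted p = 1.85e-09 and 1.56e-09, edgeR). Of 6 endothelial markers, 2 were higher and 0 lower of 2 tested in *Atm-/-*, and 2 higher and 1 lower of 3 in *Sirt6-/-*, where *Kdr* had 4 to 12 reads against 86 to 135 in WT and 330 to 422 in *Atm-/-*. Of these calls, 1 in *Atm-/-* and all 3 in *Sirt6-/-* were of genes that passed the filter through 1 genotype. *Pecam1* had at most 10 reads and *Cdh5* at most 13 in any sample. Of 6 haematopoietic markers, 0 were higher and 1 lower of 3 tested in *Atm-/-*, and 0 higher and 2 lower of 3 in *Sirt6-/-*. *Csf1r* was lower in both (-3.43 and -1.86), and *Ptprc* had at most 6 reads. Of 6 pluripotency markers 1 was tested, which was lower in *Atm-/-* and not called in *Sirt6-/-*, and *Pou5f1* had 0 reads in every sample.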
